A study of Drosophila melanogaster with 11 samples.

Results

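The comparison described here set the heads of flies kept for 10 days at 18 °C against the heads of flies frozen just before that exposure began. It used 6 of the 11 RNA-seq libraries of the series, 3 labelled as taken after 10 days at 18 °C and 3 labelled pre-treatment, and all 6 were chosen by their labels alone. Every library came from wild-type males of the CantonS (CS) strain, a standard laboratory strain, reared at 25 °C in 12 h of light and 12 h of dark. Males were separated from females after mating, given a day to recover from CO2 anaesthesia, pooled from several vials per replicate and flash frozen. The remaining 5 libraries were 2 from flies kept for 10 days at 25 °C and 3 from flies kept for 10 days at 29 °C. Flies of the 18 °C group were thus both 10 days older and cooler than pre-treatment flies, and in this comparison age and cooling cannot be told apart. Values of the 25 °C group against the same pre-treatment libraries are given beside some results for that reason. The labels call the tissue head, whereas the series text speaks of brains in one place, and the time of day of freezing was not given in the sources used here.

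A fly head holds the brain, the compound eyes, the fat body, muscle and the cuticle that encloses them, so total head RNA is a mixture of these tissues. In the first days after eclosion the adult cuticle is still being laid down and hardened, and transcripts of larval and pupal origin are still being lost. Cool temperatures slow the development and metabolism of this cold-blooded animal, and the circadian clock, a feedback loop in which period and timeless repress their own activator Clock, is set by light and temperature cycles. Circular RNAs (circRNAs) are closed loops that arise from back-splicing, the joining of a downstream splice donor to an acceptor that lies before it. They lack free ends, are degraded slowly and are abundant in the nervous system.

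The libraries held 51011022 to 123404737 recovered reads in the 18 °C group and 32064412 to 52431127 in the pre-treatment group, so depth moved with the groups and its part in the results was tested only through a fit with depth as a covariate. All levels below are reads divided by a single size factor per library, called normalized reads. A single read was worth 0.474 to 1.19 normalized reads at 18 °C and 1.14 to 1.99 in pre-treatment libraries. The gene with most reads was ninaE, the main rhodopsin of the outer photoreceptors, which took 1.75% to 1.81% of the reads at 18 °C and 1.42% to 1.52% before treatment. The neuronal gene elav had 22053, 23702 and 19335 normalized reads in the 18 °C libraries and 21748, 25011 and 18682 in the pre-treatment libraries, and the glial gene repo had 6663, 6421 and 6622 at 18 °C and 5689.7, 5790.3 and 5649.8 before treatment, in the order of their replicate numbers. Markers that define other body parts were detected. The summed level of 21 testis markers was 26511 to 30441 normalized reads at 18 °C and 27528 to 31071 before treatment, and that of 15 accessory gland markers was 22060 to 28803 at 18 °C and 18698 to 33366 before treatment. None of the testis or accessory gland markers was at 0 in all 6 libraries.

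Of 12676 linear genes tested, 595 (4.69%) were called higher and 563 (4.44%) lower in flies from 18 °C, where a call needed an adjusted p below 0.05 and a log2 fold change beyond 0.5. The test was limma on log2(normalized reads + 1) with Benjamini-Hochberg adjustment, so fold changes of low genes are understated. The groups did not overlap at 3999 genes (31.5%). The 25 °C group against the same pre-treatment libraries had 351 higher (2.77%) and 337 lower genes (2.66%), and 18 °C against 25 °C had 197 higher (1.55%) and 213 lower genes (1.68%). The median log2 fold change of all genes was -0.01. The number of calls moved with single libraries, falling to 360 higher and 358 lower genes without 18 °C replicate 1, and to 361 lower genes without 18 °C replicate 2. The 12 largest rises and the 12 largest falls among called genes with a mean of at least 100 normalized reads over the 6 libraries and groups that did not overlap are plotted below by library, and all but SPH93 kept their call under every alternative setting tried.

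**Figure D1:**
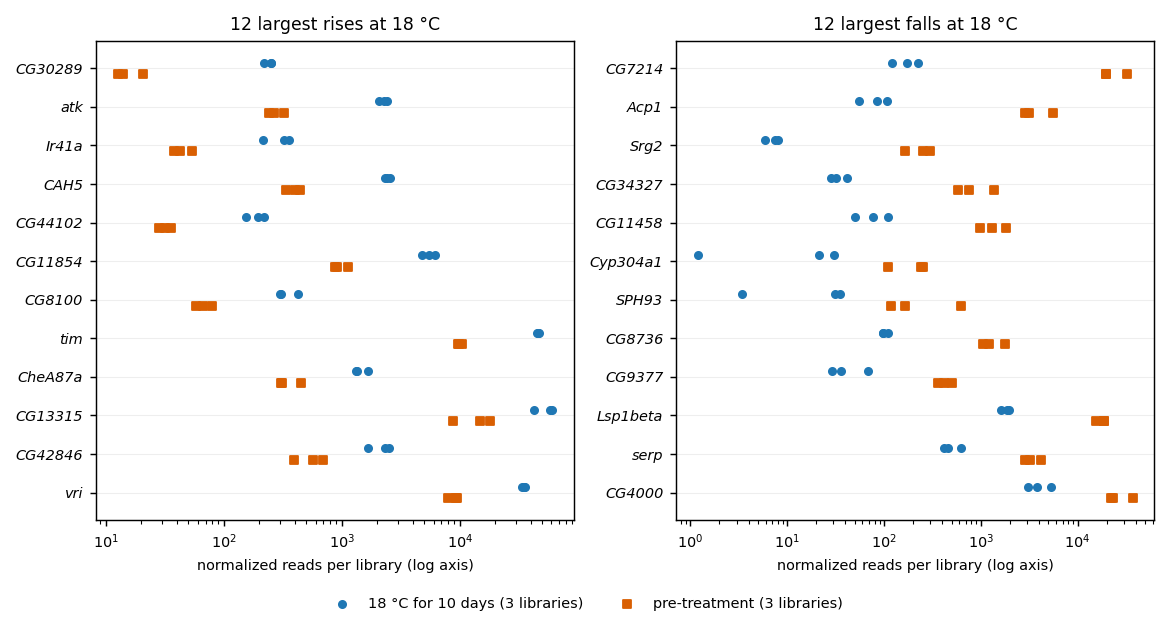
Normalized reads per library (log axis) of the 12 linear genes with the largest called rises (left) and the 12 with the largest called falls (right) at 18 °C, with 1 circle per 18 °C library and 1 square per pre-treatment library. The circles and squares of a gene do not overlap, and CG7214 and Acp1 lie farthest apart among the falls.

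The steepest fall was that of CG7214, a gene with no function assigned in the sources used here, which had 173, 121 and 223 normalized reads in the 18 °C libraries, against 19644, 19755 and 32844 in the pre-treatment libraries, a mean 139.7-fold lower at 18 °C (log2 fold change -7.12 ± 0.42 SE, adjusted p = 6.8e-06). Acp1, which encodes an adult cuticle protein, had 54.9, 84.9 and 107 at 18 °C and 3133, 5591 and 2834 before treatment, 46.8-fold lower (adjusted p = 4.9e-06). CG34327 had 28.1, 32.3 and 41.8 at 18 °C and 749.5, 577 and 1388 before treatment. In each of these genes the highest 18 °C library was far below the lowest pre-treatment library. CG8736, CG11458 and CG4000 were lower too, with log2 fold changes of -3.67, -4.13 and -2.73. The 25 °C group, set against the same pre-treatment libraries, had log2 fold changes of -8.75 for CG7214, -6.14 for Acp1, -5.06 for CG34327 and -3.77 for CG8736, and in the test of 18 °C against 25 °C none of these genes passed (adjusted p = 0.082, 0.39, 0.68 and 0.89).

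Lsp1beta, CG9377, Srg2 and SPH93 were lower at 18 °C than at 25 °C too. Lsp1beta, a larval serum protein that stores amino acids for metamorphosis, had 1609.9, 1873 and 1953 normalized reads at 18 °C, against 18926, 15663 and 18914 before treatment, 9.84-fold lower (adjusted p = 5.2e-06). Its log2 fold change was -3.30 for 18 °C and -0.45 for 25 °C against pre-treatment, and it was -2.85 for 18 °C against 25 °C (adjusted p = 0.00011). CG9377 had 36.4, 28.9 and 69.2 at 18 °C and 501, 365 and 417 before treatment, and Srg2 had 7.55, 8.06 and 5.97 at 18 °C and 253, 165 and 301 before treatment. Against 25 °C these genes had log2 fold changes of -4.28 (adjusted p = 0.00020) and -3.79 (adjusted p = 0.00057). Cyp304a1, a cytochrome P450, and SPH93, a serine protease homologue, varied more between libraries. Cyp304a1 had 21.3, 30.8 and 1.19 at 18 °C and 253, 109 and 241 before treatment (adjusted p = 0.0099), and SPH93 had 3.43, 35.6 and 31 at 18 °C and 624, 165 and 118 before treatment (adjusted p = 0.011). Against 25 °C the adjusted p was 0.018 for SPH93 and 0.074 for Cyp304a1. The call of SPH93 against pre-treatment was lost in the fit with depth as a covariate. Another larval serum protein gene, Lsp1alpha, went the other way, with 993, 802 and 1086 normalized reads at 18 °C and 528, 398 and 594 before treatment (adjusted p = 0.027), a call lost without 18 °C replicate 1 or 3 or without pre-treatment replicate 1 or 2 (adjusted p = 0.064 to 0.094).

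The largest rise was in CG30289, with 251, 219 and 251 normalized reads at 18 °C, against 12.6, 20.5 and 14 before treatment, 15.3-fold higher (log2 fold change 3.88 ± 0.22 SE, adjusted p = 5.2e-06). The gene atk (artichoke), which encodes a leucine-rich repeat protein of the extracellular matrix, had 2282, 2089 and 2419 at 18 °C and 269, 242 and 321 before treatment, 8.17-fold higher. CAH5, a carbonic anhydrase, had 2417, 2348 and 2577 at 18 °C and 339, 399 and 443 before treatment, 6.22-fold higher. The 3 libraries of each group lay within a narrow band for each of these genes. Ir41a, an ionotropic receptor of olfactory neurons in the antenna, rose 6.65-fold, with 322, 354 and 214 at 18 °C and 37.7, 42.2 and 53.8 before treatment. CG11854, CG44102, CG8100, CG42846 and CheA87a rose 5.64-fold, 5.92-fold, 5.11-fold, 3.93-fold and 4.06-fold. The rises of CG30289, atk, Ir41a, CAH5, CG44102 and CG11854 were larger at 18 °C than at 25 °C, with log2 fold changes of 18 °C against 25 °C from 0.86 (CAH5) to 1.43 (CG30289) and adjusted p from 0.0041 to 0.012. CG8100, CheA87a and CG42846 showed no such difference at this number of libraries (adjusted p = 1.00, 0.14 and 0.45). CG13315 had 58614, 61149 and 42480.2 normalized reads at 18 °C and 15004, 18002 and 8797 before treatment, while its log2 fold change at 25 °C against pre-treatment was 0.01.

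**Figure D2:**
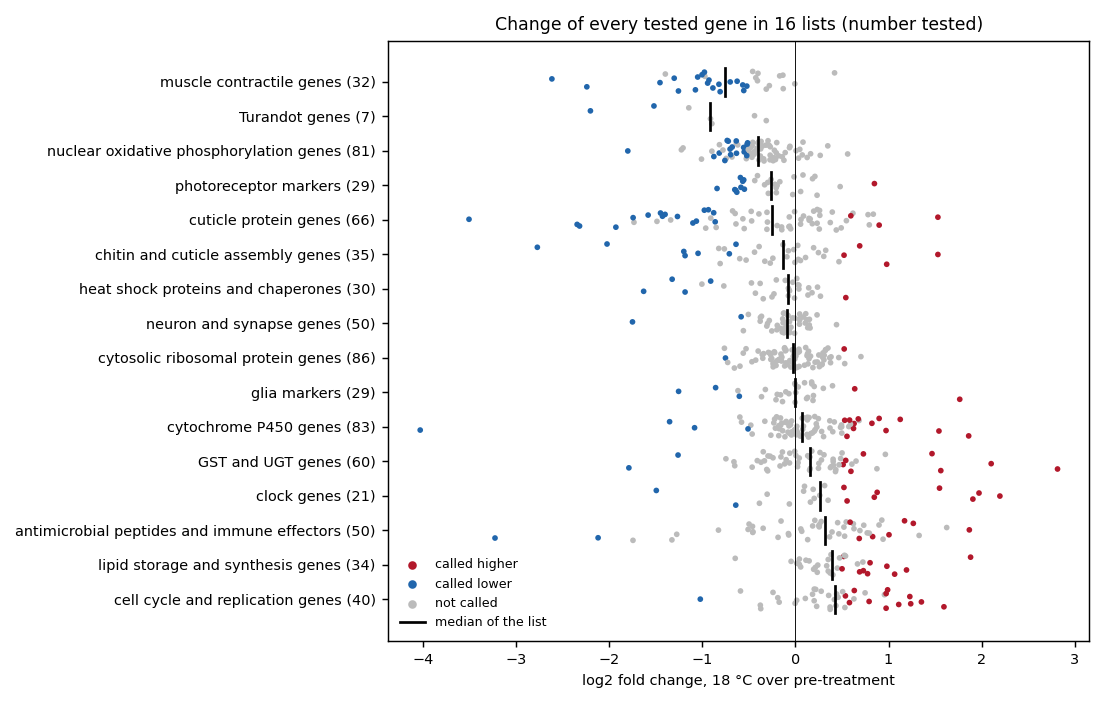
Log2 fold change of 18 °C over pre-treatment (horizontal axis) for every tested gene of 16 gene lists, 1 point per gene, coloured by its call, with the median of each list as a black bar. The median is -0.75 for muscle contractile genes and 0.43 for cell cycle and replication genes.

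Genes of the cuticle fell more often than they rose. Of 66 cuticle protein genes tested, 3 were called higher and 16 lower (28.8% called, against 9.14% of all genes), with a median log2 fold change of -0.25. Cpr genes encode chitin-binding proteins of the exoskeleton. Cpr49Ae had 2797, 2914 and 2860.2 normalized reads at 18 °C, against 5471, 6748 and 4834 before treatment, 1.99-fold lower (adjusted p = 0.00042). Cpr100A had 369.7, 369.5 and 266 at 18 °C and 1207, 1838 and 911 before treatment, 3.93-fold lower, and Cpr49Ag had 428, 528 and 437 at 18 °C and 1510.0, 1671 and 1055 before treatment, 3.04-fold lower. The groups did not overlap in any of these genes. The rise of Pcp, a pupal cuticle protein gene, was 1.87-fold, with 497, 437 and 531 at 18 °C and 262, 270.2 and 249 before treatment. Leaving out 1 library at a time gave 10 to 18 lower genes (10 without 18 °C replicate 2), and the median ranged from -0.37 to -0.15, while the fit with depth as a covariate gave 10 lower genes and a median of -0.03.

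Enzymes that build and modify chitin, the polysaccharide of the cuticle, moved in both directions. Of 35 tested genes, 4 were higher and 7 lower (31.4% called, against 9.14% of all genes). Their median was -0.13, which was 0.07 with depth as a covariate. The chitin deacetylase gene serp (serpentine) had 464, 414 and 620.5 normalized reads at 18 °C, against 3204, 2856 and 4180.0 before treatment, 6.83-fold lower (log2 fold change -2.77 ± 0.25 SE, adjusted p = 8.4e-05). Cda4, another chitin deacetylase gene, had 94, 102 and 84.7 at 18 °C and 382, 516 and 285 before treatment, 4.21-fold lower. The chitin synthase gene kkv had 152, 134 and 147 at 18 °C and 284, 438 and 295 before treatment, 2.35-fold lower. The chitin-binding genes obst-A and Gasp were 2.07-fold and 2.27-fold lower, while the chitinase gene Cht5 was 1.61-fold higher. Without 18 °C replicate 1 or without 18 °C replicate 2, 1 gene of this list was higher and 5 were lower, and 1 or 2 were higher without pre-treatment replicate 3 or 1. Tanning enzymes harden and darken the cuticle, and ple, the tyrosine hydroxylase gene that also starts dopamine synthesis in neurons, had 3970.2, 3471 and 4195 normalized reads at 18 °C, against 12666, 12721 and 13683 before treatment, 3.36-fold lower (log2 fold change -1.75 ± 0.08 SE, adjusted p = 2.5e-06). The gene speck, the arylalkylamine N-acetyltransferase gene that acts on dopamine, had 4229, 3865 and 3933 at 18 °C and 8843, 10393 and 9517 before treatment, 2.39-fold lower. Both fell at 25 °C as well, by 1.31 and 0.70 on the log2 scale, and both were lower at 18 °C than at 25 °C (log2 fold change -0.56, adjusted p = 0.0065 for speck, and -0.44, adjusted p = 0.026 for ple, a change smaller than a call needed).

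Most contractile genes of muscle were lower at 18 °C. Of 32 genes tested, 19 were called lower and none higher (59.4% called), with a median log2 fold change of -0.75. Mhc, the only muscle myosin heavy chain gene of the fly, had 70174, 64067 and 76167 normalized reads at 18 °C, against 163558, 155237 and 202348 before treatment, 2.48-fold lower (adjusted p = 0.00017). The myosin light chain gene Mlc1 had 5268, 5261 and 6211 at 18 °C and 13378, 11813 and 14871 before treatment, 2.39-fold lower. TpnC41C, a troponin C gene, had 495, 461 and 600.2 at 18 °C and 2388, 1887 and 3229 before treatment, 4.82-fold lower, and the calcium pump gene SERCA had 65924, 64287 and 69952 at 18 °C and 126712, 124131 and 143988 before treatment, 1.97-fold lower. All 3 libraries of the 18 °C group lay below all 3 of the pre-treatment group in these genes. The troponin T gene up and the giant kinase gene Obsc were 2.81-fold and 1.85-fold lower. Act88F, the actin gene of the indirect flight muscles of the thorax, had 851, 733 and 782 at 18 °C and 1353, 882 and 784 before treatment and did not pass (adjusted p = 0.28). The number of lower genes ranged from 13 (without 18 °C replicate 2) to 20 when single libraries were left out, and was 12 with depth as a covariate. In the 25 °C group 13 of the 32 genes were lower than before treatment, with a median log2 fold change of -0.58. In bulk head RNA, fewer muscle cells and less of a transcript per muscle cell cannot be told apart, and the same holds for every tissue described here.

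Some nuclear genes of oxidative phosphorylation, the mitochondrial chain that makes ATP, were lower too, with 17 of 81 tested genes lower, none higher (21% called) and a median log2 fold change of -0.40. COX6AL, a cytochrome c oxidase subunit gene, had 9.60, 10.9 and 13.1 normalized reads at 18 °C, against 55, 45.6 and 27.9 before treatment. ATPsynC, the ring subunit of ATP synthase, had 71344, 68852 and 79019 at 18 °C and 111521, 106122 and 122392 before treatment, 1.55-fold lower (adjusted p = 0.00082), and SdhD, a subunit of succinate dehydrogenase, had 5062, 4738 and 5923 at 18 °C and 8312, 7191 and 8912 before treatment, 1.55-fold lower (adjusted p = 0.0027). Except for COX6AL, the falls of these genes were under 2-fold. The count depended on single libraries, with 6 lower genes without 18 °C replicate 2, 9 without 18 °C replicate 1, 11 without pre-treatment replicate 1 or 3 and 24 without pre-treatment replicate 2, and only 2 genes were called lower with depth as a covariate (median -0.21), where ATPsynC and SdhD lost their calls. The 25 °C group had 31 lower genes in this list and a median of -0.61 against pre-treatment. The summed level of 17 haemocyte markers was 82690 to 110726 normalized reads at 18 °C and 124629 to 219195 before treatment. Of these genes 3 were called lower (Hml, Col4a1 and vkg), 1 was called higher (srp) and 13 were not called (23.5% called). The number of lower genes was 0 to 4 when single libraries were left out (0 without 18 °C replicate 1). Their part in the result was not tested.

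In the eye, several genes of the phototransduction cascade were lower, while no rhodopsin gene was called. Of 29 photoreceptor markers, 9 were called lower and 1 higher (34.5% called), and their median log2 fold change was -0.26. The gene eys (eyes shut) encodes a secreted protein that opens the space between the light-sensing membranes, and had 22605, 22510.2 and 20741 normalized reads at 18 °C, against 38078, 41497 and 38483 before treatment, 1.79-fold lower (adjusted p = 4.7e-05). The gene rdgA, the diacylglycerol kinase gene that helps to end the light response, had 44919, 45744 and 41250.0 at 18 °C and 65123, 69719 and 69135 before treatment, 1.55-fold lower. The light-gated channel gene trp had 87802, 86239.9 and 83987 at 18 °C and 123173, 128486 and 125716 before treatment, 1.46-fold lower. In each gene the 3 libraries of a group lay close together. The gene inaF-B, needed for full TRP channel activity, was 1.51-fold lower at 18 °C (log2 fold change -0.59) and differed from 25 °C as well (log2 fold change -0.91, adjusted p = 0.00060). The log2 fold change of ninaE was 0.23 ± 0.09 (SE, adjusted p = 0.12), and Rh3, Rh4, Rh5 and Rh6, the rhodopsins of the inner photoreceptors, had log2 fold changes of -0.03, 0.48, 0.18 and 0.06, none of which was called. For Rh4 the adjusted p was 0.010, with a change below the size needed for a call, and it was called higher without pre-treatment replicate 1 (adjusted p = 0.026) or 2 (adjusted p = 0.0088). Of 8 genes that supply the vitamin A chromophore, 1 was higher and 2 were lower (37.5% called), with a median log2 fold change of 0.07. In this list pinta, a retinoid-binding protein gene of pigment cells, had 2435, 2629 and 2375 normalized reads at 18 °C and 1505, 1698 and 1234 before treatment, 1.68-fold higher, a call lost with depth as a covariate. Pdh, a dehydrogenase gene of retinal pigment cells, had 35812, 36900.5 and 37912 normalized reads at 18 °C and 71570.0, 71874 and 81115 before treatment, 2.03-fold lower, and ninaD, a receptor gene for carotenoid uptake, was 2.70-fold lower.

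Of 50 neuron and synapse genes, 2 were called lower and none higher (4.0% called), with a median log2 fold change of -0.09. Those were ple, described above, and Gad1, the gene for the enzyme that makes the inhibitory transmitter GABA, which had 26367, 26657 and 26624 normalized reads at 18 °C and 38785, 40687 and 39887 before treatment, 1.5-fold lower (adjusted p = 0.00013). Gad1 fell by 0.66 on the log2 scale at 25 °C. With depth as a covariate, 1 gene of this list was higher and 10 were lower, with a median of -0.33. Of 29 glia markers, 2 were higher and 3 lower (17.2% called, against 9.14% of all genes), with a median of 0.00. With depth as a covariate 5 were higher and 3 lower. Indy, a citrate transporter gene of that list, had 14709, 14249 and 14776 at 18 °C and 9202, 9691 and 9231 before treatment, 1.56-fold higher. Lists of housekeeping machinery stood near or below the share of calls over all genes, with 2 of 86 cytosolic ribosomal protein genes, 2 of 74 mitochondrial ribosomal protein genes, 4 of 43 proteasome genes and 1 of 50 splicing and circRNA biogenesis factors called.

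Clock genes included the linear gene with the smallest p of the comparison. Of 21 genes tested, 8 were called higher and 2 lower (47.6% called). The repressor gene tim (timeless) had 46692, 46348 and 45231 normalized reads at 18 °C, against 9953, 10509 and 9710.1 before treatment, 4.58-fold higher (log2 fold change 2.20 ± 0.06 SE, adjusted p = 2.0e-08). Its partner per (period) had 12948, 13248 and 11221 at 18 °C and 3433, 3523 and 3017 before treatment, 3.75-fold higher (adjusted p = 2.5e-06). The repressor gene vri (vrille), which acts on Clk, had 35858, 34868 and 33675 at 18 °C and 9466, 9233 and 7971 before treatment, 3.91-fold higher (adjusted p = 5.4e-07). Clk, the activator of per, tim and vri, had 1555, 1596 and 1255 at 18 °C and 4073, 4608 and 3719 before treatment, 2.81-fold lower (adjusted p = 4.6e-05). None of these genes overlapped between the groups. The repressor gene cwo (clockwork orange) was 1.80-fold higher, and to (takeout), a clock output gene of the head fat body, had 153602, 117227 and 189579 at 18 °C and 49597, 45248 and 60827 before treatment, 2.96-fold higher. The other activator, cyc (cycle), had 1755, 1715 and 1756 at 18 °C and 1573, 1625 and 1392 before treatment and was not called (log2 fold change 0.19, adjusted p = 0.11). The calls of Pdp1 (1.83-fold higher) and cry (1.57-fold lower) depended on single libraries. Pdp1 lost its call without 18 °C replicate 1 or 2 (adjusted p = 0.055 to 0.058), and cry did so without 18 °C replicate 1 or 2 or pre-treatment replicate 1 or 3 (adjusted p = 0.084 to 0.15).

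Of the 10 clock genes called against pre-treatment, tim, vri, per, to and Clk were also called in the same direction against 25 °C, where 4 of the 21 genes were higher and 1 lower, and the other 5 were not called. Against pre-treatment, the 25 °C group had log2 fold changes of 0.69 for tim, 0.66 for vri, 0.18 for per, -0.01 for to and 0.01 for Clk. The log2 fold changes of 18 °C against 25 °C were 1.5 for tim (adjusted p = 3.0e-06), 1.31 for vri (adjusted p = 5.1e-05), 1.73 for per (adjusted p = 5.1e-05), 1.55 for to (adjusted p = 0.0087) and -1.51 for Clk (adjusted p = 0.00037). Both comparisons share the 18 °C libraries or the pre-treatment libraries with the main one, so their values are not independent of it. Clock transcripts cycle over the day, and the part of the time of freezing in these values was not tested.

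**Figure D3:**
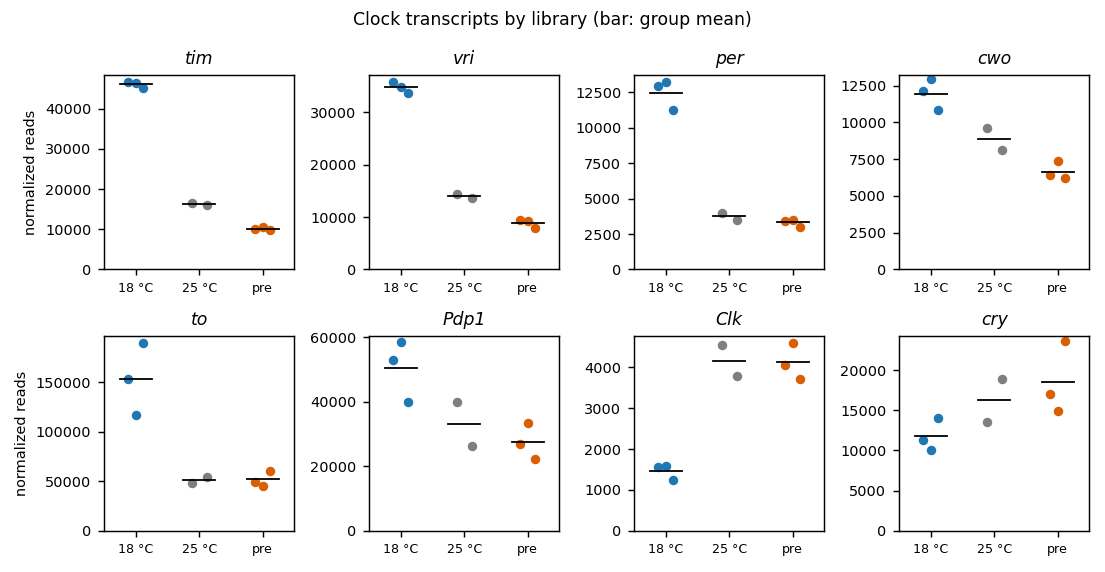
Normalized reads of 8 clock genes in each library of the 18 °C (blue), 25 °C (grey) and pre-treatment (orange) groups, with a bar at the group mean. For tim, vri, per and to the 3 libraries from 18 °C lie above all others, and for Clk they lie below all others.

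Several genes of fat storage and fat use were higher at 18 °C. Of 34 lipid storage and synthesis genes tested, 10 were called higher and none lower (29.4% called), with a median log2 fold change of 0.39. When single libraries were left out, 8 to 11 were higher. In the 25 °C group 7 genes of this list were called higher than before treatment and none lower, with a median of 0.26. In the test of 18 °C against 25 °C, 1 was higher and none lower. Desat1, the fatty acid desaturase that adds double bonds to membrane and pheromone lipids, had 234366, 219659 and 242819 normalized reads at 18 °C, against 116904, 116285 and 100208 before treatment, 2.09-fold higher (adjusted p = 0.00011). Lsd-2, a perilipin that coats lipid droplets, had 37534, 36884 and 38151 at 18 °C and 23505, 23949.9 and 22358 before treatment, 1.61-fold higher. The triglyceride lipase gene bmm (brummer) had 7333, 7377 and 6974 at 18 °C and 4761, 4496 and 3516 before treatment, 1.70-fold higher. Both the coat and the lipase were thus above the whole pre-treatment range. Genes of fatty acid oxidation rose too, with whd (carnitine palmitoyltransferase) 1.65-fold and yip2 (a thiolase) 1.75-fold higher. AkhR, the receptor for adipokinetic hormone, which mobilises stored fat, had 5156, 4636 and 4878 at 18 °C and 2827, 3012 and 2899.7 before treatment, 1.68-fold higher, whereas its log2 fold change at 25 °C was -0.22 and 18 °C was above 25 °C (log2 fold change 0.96, adjusted p = 0.0015). In carbohydrate metabolism 3 of 25 genes were higher and none lower (12% called, against 9.14% of all genes), with a median log2 fold change of -0.08, and with depth as a covariate 7 were higher and 1 lower. Ldh (lactate dehydrogenase) was 2.22-fold and Pepck2 (phosphoenolpyruvate carboxykinase) 2.28-fold higher. Fat body and haemolymph genes were mostly not called. Of 27 tested, 6 were higher, 2 lower and 19 not called (29.6% called), with a median log2 fold change of 0.12. Some are shared with the lipid list. Their summed level over 28 genes was 1186610.0 to 1440860.0 normalized reads at 18 °C and 1064030.0 to 1154230.0 before treatment. That sum includes to, the abundant clock output gene described above, which was among the 6 higher. The part of these genes in the result was not tested. The gene fit, which encodes a secreted factor of the fat body, was 3.05-fold lower.

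Hormone genes changed in both directions. Jhe, the esterase that breaks down juvenile hormone, had 121, 126 and 165 normalized reads at 18 °C, against 710.2, 601 and 1029 before treatment, 5.68-fold lower (log2 fold change -2.47 ± 0.22 SE, adjusted p = 8.6e-05). Jhe had a log2 fold change of -0.21 in the 25 °C group against pre-treatment, and of -2.26 for 18 °C against 25 °C (adjusted p = 0.00098). Jheh1, the epoxide hydrolase of the other breakdown route, had 9194, 8567 and 10957 at 18 °C and 5729, 5440.3 and 5937 before treatment, 1.68-fold higher, and jhamt, the methyltransferase of the last step of juvenile hormone synthesis, had 195, 138 and 171 at 18 °C and 40.9, 73 and 71.8 before treatment, 2.72-fold higher. The 2 breakdown genes therefore moved in opposite directions. For ecdysone, the moulting steroid, the breakdown enzyme gene Cyp18a1 was 1.76-fold and the importer gene Oatp74D 1.88-fold higher. Over 41 genes of both hormones, 7 were higher and 2 lower (22.0% called, against 9.14% of all genes), with a median of 0.06. Ilp3, an insulin-like peptide of the brain, had 434, 445 and 568 normalized reads at 18 °C, against 1364, 1221 and 1436 before treatment, 2.78-fold lower (adjusted p = 0.00013), and it also fell by 0.95 on the log2 scale at 25 °C. CCHa2, a nutrient-responsive peptide that acts on insulin-producing cells, had 14080.4, 14624 and 14531 at 18 °C and 7380.4, 9267 and 5099 before treatment, 1.99-fold higher (adjusted p = 0.012), and its call was lost with depth as a covariate.

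Several genes of DNA replication were higher at 18 °C, although the adult head has few dividing cells. Of 40 cell cycle and replication genes, 12 were called higher and 1 lower (32.5% called), with a median log2 fold change of 0.43. Claspin, a replication checkpoint gene, had 393, 351 and 419 normalized reads at 18 °C, against 112, 149 and 124 before treatment, 3.02-fold higher (adjusted p = 0.00019). PCNA, the sliding clamp of DNA polymerase, had 305, 226 and 266 at 18 °C and 126, 122 and 118 before treatment, 2.18-fold higher. The helicase subunit gene dpa (Mcm4) had 535, 592 and 473 at 18 °C and 277, 296 and 239 before treatment, 1.97-fold higher. PolA1, the catalytic subunit of DNA polymerase alpha, was 2.29-fold higher, and RnrL and RnrS, the subunits of ribonucleotide reductase, were 1.72-fold and 1.97-fold higher. The groups did not overlap in any of these. In the 25 °C group 1 gene of the list was called higher than before treatment, with a median of 0.14. In the test of 18 °C against 25 °C, 7 genes were higher, among them Claspin (log2 fold change 1.44, adjusted p = 0.0021) and PCNA (0.98, adjusted p = 0.0081). The number of higher genes was 9 to 12 when single libraries were left out.

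Stress and defence genes did not move as one group. Of 7 Turandot genes, which encode secreted proteins induced by stress, 2 were lower and none higher (28.6% called, against 9.14% of all genes). Their median log2 fold change was -0.91. TotC had 2496, 4969 and 5484 normalized reads at 18 °C, against 18269.6, 18844 and 19280.5 before treatment, 4.36-fold lower (adjusted p = 0.0097), and TotA had 10592, 18690.3 and 16635 at 18 °C and 44026, 54517 and 32371 before treatment, 2.85-fold lower (adjusted p = 0.023). TotC lost its call with depth as a covariate, and TotA did so without 18 °C replicate 1 or pre-treatment replicate 1 or 2 (adjusted p = 0.058 to 0.098). Both were lower at 25 °C as well, by 3.90 and 2.74 on the log2 scale. Of 30 heat shock proteins and chaperones, 1 was higher and 4 lower (16.7% called), and with depth as a covariate none was higher and 2 were lower. The small heat shock protein gene CG7409 had 2199.8, 1965 and 2532 at 18 °C and 6099.8, 5602 and 9523 before treatment, 3.17-fold lower, and Hsp67Bc was 1.89-fold lower. Hsp83, the constitutive Hsp90 gene, had 63401, 58119 and 73843 at 18 °C and 67491, 58622 and 80458 before treatment and was not called, and neither was Hsp70Aa, an inducible Hsp70 gene, which had 13.7, 9.01 and 15.5 at 18 °C and 23.6, 16 and 27.9 before treatment. Among 31 genes of cold acclimation 3 were higher and 2 lower (16.1% called), and with depth as a covariate 4 were higher and none lower. Frost (Fst), known for its induction during recovery from cold, had 15.8, 14.7 and 8.35 at 18 °C and 25.1, 20.5 and 23.9 before treatment and was not called (adjusted p = 0.15).

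Of 50 antimicrobial peptide and immune effector genes, 7 were higher and 2 lower (18.0% called), with a median log2 fold change of 0.32. Dso1 (Daisho1) had 13859, 15419 and 8396 normalized reads at 18 °C, against 6024, 6049 and 3534 before treatment, 2.41-fold higher (adjusted p = 0.0084). Bbd had 42948, 47992 and 48210.1 at 18 °C and 31016, 22936 and 17264 before treatment, 1.95-fold higher. PGRP-LB, whose product breaks down peptidoglycan and so damps the immune response, was 1.51-fold higher, and BomS4, BomT1, BaraA1 and BomS2 were 2.27-fold, 1.61-fold, 3.37-fold and 1.77-fold higher. Each of these 7 lost its call with depth as a covariate, and BomS4, BomT1, BaraA1 and BomS2 also lost it without 18 °C replicate 1 or without 18 °C replicate 2, among other single libraries (adjusted p up to 0.17, for BomS2). AttD, an attacin gene, had 121, 98.7 and 32.2 normalized reads at 18 °C, against 328, 286 and 351 before treatment, 3.83-fold lower (adjusted p = 0.0075), and LysX, a lysozyme gene, was 11.1-fold lower. The peptide genes DptA and Drs varied widely within groups, with 391, 4181 and 1342 at 18 °C and 1914, 1822 and 929 before treatment for DptA and 1068, 1315 and 986 at 18 °C and 5864, 1209.6 and 2772 before treatment for Drs, and neither was called. Drs was called lower without pre-treatment replicate 2 (adjusted p = 0.0046) and by both count models. Only 3 genes were higher without 18 °C replicate 1 or without 18 °C replicate 2, and 2 with depth as a covariate. The Toll pathway protease gene psh and the serpin gene Spn27A, which restrains melanization, were 1.53-fold and 1.52-fold higher.

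Enzymes that process foreign and endogenous small molecules were called higher more often than lower. Of 83 cytochrome P450 genes, 12 were higher and 4 lower (19.3% called), with a median log2 fold change of 0.07. Cyp6a8 had 2686, 2847 and 2824 normalized reads at 18 °C, against 957, 1042 and 875 before treatment, 2.91-fold higher (adjusted p = 1.1e-05). Cyp4c3 went the other way, with 383, 387 and 339 at 18 °C and 855, 993 and 989 before treatment, 2.56-fold lower. Of 60 glutathione S-transferase and UDP-glucuronosyltransferase genes, 8 were higher and 2 lower (16.7% called), and with depth as a covariate 8 were higher and 6 lower. GstE7 had 1670.3, 1572 and 1805 at 18 °C and 619, 580.3 and 622 before treatment, 2.77-fold higher, and the peroxiredoxin gene Prx6c had 1274, 1039 and 1098 at 18 °C and 387, 406 and 379 before treatment, 2.91-fold higher. Both were also above the 25 °C group (log2 fold change 0.82, adjusted p = 0.010, and 0.86, adjusted p = 0.0087). In the 25 °C group against pre-treatment, 13 P450 genes were higher and 1 lower, and 9 transferase genes were higher and 2 lower. In the test of 18 °C against 25 °C, 3 P450 genes were higher and 6 lower, and 4 transferase genes were higher and 5 lower. For 18 °C against pre-treatment without 18 °C replicate 1 or pre-treatment replicate 1, 8 P450 and 4 transferase genes were higher. Among 85 chemosensory receptor genes, 5 were higher and 4 lower (10.6% called, close to the 9.14% of all genes), and 3 were higher and 2 lower with depth as a covariate. The gustatory receptor gene Gr97a was 2.95-fold higher and the odorant receptor gene Or1a 2.33-fold lower. Of 18 temperature and humidity sensing channel genes, TrpA1, a warmth sensor, had 447, 457 and 427 normalized reads at 18 °C, against 233, 252 and 239 before treatment, 1.84-fold higher (adjusted p = 0.00062), and above the 25 °C group (log2 fold change 0.53, adjusted p = 0.036).

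CircRNAs were measured in the same libraries from reads that cross a back-splice junction. The total over the 1837 circRNAs with a span of at least 50 nt was 35403, 29732 and 36894 normalized reads in the 18 °C libraries, against 31621, 13271 and 35197 in the pre-treatment libraries. Pre-treatment replicate 2 was the lowest by far, and the other 5 libraries overlapped between the groups. The means were 34010 ± 3779 at 18 °C and 26696 ± 11763 before treatment (SD, n = 3 each), a ratio of 1.27, and a two-sided exact permutation test gave p = 0.5, where 0.1 is the smallest p that 3 against 3 libraries allow. Without pre-treatment replicate 2 the ratio was 1.02.

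Of 1767 single circRNAs tested, 170 were higher (9.62%) and 2 lower (0.113%), in all 9.73%. The groups did not overlap at 494 (28.0%), 479 of them higher (27.1%) and 15 lower (0.849%). Against the same pre-treatment libraries 68 circRNAs (3.85%) were higher at 25 °C, and 3 (0.17%) were higher at 18 °C than at 25 °C. The number called higher was 47, 70 and 70 without 18 °C replicate 1, 2 or 3 and 352 without pre-treatment replicate 1. The filter could be passed through any of the 4 groups of the series. Of the tested circRNAs, 1389 passed it through the 18 °C group and 765 through the pre-treatment group. A circRNA of slo at 3R:24691460-24703307 passed the filter through neither and was still called higher. It had 6.86, 0.949 and 3.58 normalized reads at 18 °C and 0 in each pre-treatment library. Only 37 of the 170 passed the filter through the pre-treatment group. A circRNA that passed at 18 °C but not before treatment had at least 1 pre-treatment library at or below 3. This favours higher values at 18 °C but does not force them, so the counts and medians over these circRNAs are a description. Of the 170, 81 were at 0 in all 3 pre-treatment libraries and 49 at 0 in 1 or 2 of them, while 40 were above 0 in all 3. A value of 0 allows up to 3 reads, which is 3.42 to 5.98 normalized reads in the pre-treatment libraries and 1.42 to 3.58 in the 18 °C libraries, for counting error only. Of the 170, 95 had a mean below 5 normalized reads over the 6 libraries and so lay near that limit. Depth moved with the groups, and with depth as a covariate none was called higher or lower, although 502 had an unadjusted p below 0.05.

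The filter favoured higher values at 18 °C most in the rarest circRNAs, and 23.8% of those with a mean below 5 were at 0 in an 18 °C library, against 91.6% in a pre-treatment library, so the order of the following medians is in part set by the filter. The median log2 fold change was 1.24 for circRNAs with a mean below 5 normalized reads, 0.77 from 5 to 10, 0.68 from 10 to 20, 0.51 from 20 to 50 and 0.27 from 50 up. Without pre-treatment replicate 2 the same medians were 1.14, 0.30, 0.19, 0.00 and -0.20. Among the 370 circRNAs with a mean of at least 20, which were at 0 in a pre-treatment library in 3.51% of cases, 26 were higher and none lower with all libraries, and 20 were higher and 5 lower without pre-treatment replicate 2. Over all 1767 the median was 0.76 with all libraries and 0.35 without that library.

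**Figure D4:**
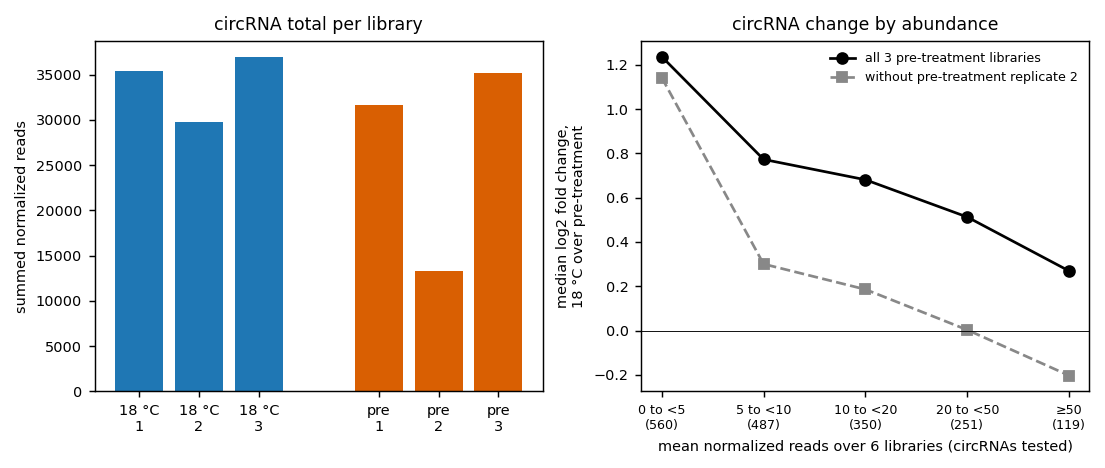
Left, summed normalized reads of circRNAs in each 18 °C and pre-treatment library. Right, median log2 fold change of 18 °C over pre-treatment in 5 classes of mean abundance, with all libraries (black) and without pre-treatment replicate 2 (grey), from 1.24 to 0.27 and from 1.14 to -0.20. Rare circRNAs mostly did not pass the filter through the pre-treatment group, which sets part of this order.

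A smaller set of circRNAs was called by several tools. The count model edgeR called 17 higher and none lower on the recovered reads, and all 17 were also called by DESeq2 and by limma with and without pre-treatment replicate 2. With edgeR and without that library 5 of them remained called. These 17 were singled out after their values were seen, and each lost its call with depth as a covariate. Only 9 of them had a mean of at least 20 normalized reads. Those of jing, btsz, nrm, PIP5K59B, CG17646 (2L:1744923-1746029) and one with no host named (2R:13180990-13183212) did not pass the filter before treatment. The filter favoured higher values at 18 °C in these too, and that of nrm was at 0 in all 3 pre-treatment libraries. The most abundant was a circRNA of dlg1, a scaffold gene of synapses and septate junctions, at X:11397825-11398822 (dm6), with 302, 256 and 362 normalized reads at 18 °C, against 121, 62.7 and 102 before treatment, 3.22-fold higher (adjusted p = 0.0073). A circRNA of ps (pasilla, an RNA-binding splicing factor) at 3R:9440681-9441665 had 86.4, 75.9 and 81.1 at 18 °C and 20.4, 19.4 and 21.9 before treatment, 3.94-fold higher (log2 fold change 1.93 ± 0.28 SE, adjusted p = 0.0036). The 3 libraries of each group lay close together for this circRNA, pre-treatment replicate 2 included. Its linear host had 102424, 112336 and 82315 at 18 °C and 79010.1, 98419.5 and 66176 before treatment, and was not called (log2 fold change 0.29, adjusted p = 0.27).

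The circRNA of par-1, a kinase gene of cell polarity, at 2R:19482952-19484207 had 54.2, 45.5 and 48.9 normalized reads at 18 °C and 11, 4.56 and 17.9 before treatment, 4.44-fold higher (adjusted p = 0.0086). Of 8 tested circRNAs of par-1, 6 were called higher, and 2 of the 6 share a start. The 5 others had at most 21.8 normalized reads in any library and were at 0 in at least 1 pre-treatment library. They passed the filter at 18 °C but not before treatment, which favours higher values at 18 °C. The linear par-1 transcript had a log2 fold change of 0.27 (adjusted p = 0.12). The filter favoured 2 of the 4 called circRNAs of CG17646 and all 3 of CG8086 in the same way. Neither linear gene was called (log2 fold change 0.14 and 0.30).

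Ndae1, a sodium-dependent anion exchanger gene, had a circRNA at 2L:7234527-7234997 with 91.2, 72.1 and 123 normalized reads at 18 °C, against 34.6, 18.2 and 25.9 before treatment, 3.64-fold higher. The circRNA of Bsg (basigin, an immunoglobulin-family membrane protein) at 2L:8105692-8107880 had 80.3, 78.7 and 114.5 at 18 °C and 39.3, 14.8 and 29.9 before treatment, 3.26-fold higher. Neither host was called, with log2 fold changes of -0.03 and 0.13. The circRNA of CoRest, a transcriptional corepressor gene, had 54.9, 41.7 and 46.5 at 18 °C and 17.3, 6.84 and 14 before treatment, 3.76-fold higher. CG30015 and Slob, a gene whose protein binds the slo channel, hosted circRNAs that were 3.64-fold and 3.50-fold higher. For Slob the edgeR test missed the threshold (adjusted p = 0.053). A circRNA with no host named, at 2R:13185784-13187908, had 63.8, 60.7 and 35.8 at 18 °C and 17.3, 13.7 and 3.99 before treatment, 4.59-fold higher, and one at 3R:18969419-18970288 was 3.36-fold higher. Among the 10 circRNAs plotted below, those of par-1 and ps kept their call whichever 18 °C library was left out, and the other 8 lost it in at least 1 such fit.

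**Figure D5:**
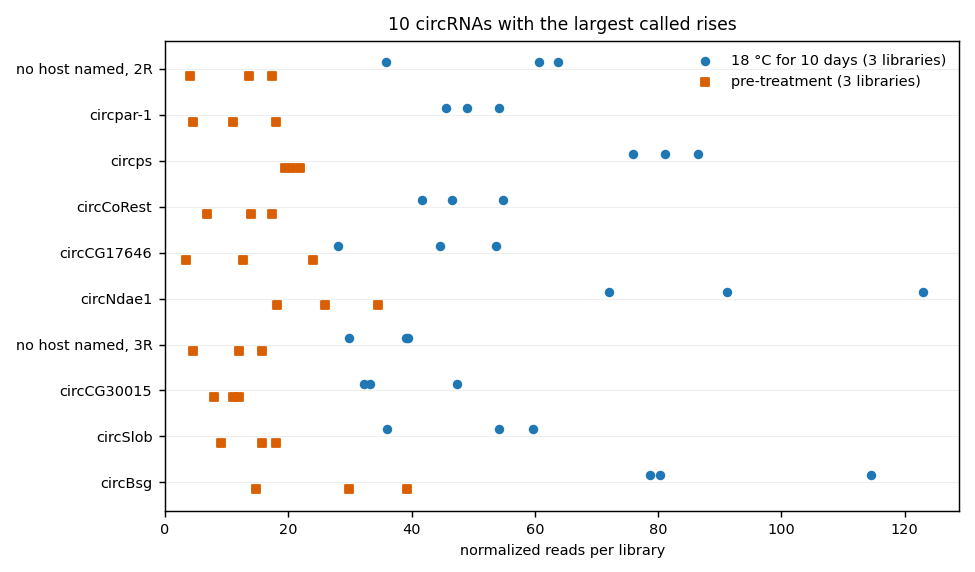
Normalized reads per library of the 10 circRNAs with the largest called rises among those with a mean of at least 20 normalized reads, circles for the 18 °C libraries and squares for the pre-treatment libraries. The groups do not overlap for any of the 10, and the circRNA of ps has the narrowest pre-treatment range.

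The muscleblind gene mbl, whose protein binds its own circRNA, gave the most abundant circRNA of the table, at 2R:17275410-17276063. It had 1082, 1035 and 922 normalized reads at 18 °C and 1019.8, 627 and 688 before treatment, so the groups overlapped and it was not called (log2 fold change 0.41 ± 0.38 SE, adjusted p = 0.52). A second mbl circRNA with the same start and a far end, at 2R:17275410-17316138, had 56.2, 58.3 and 48.9 at 18 °C and 18.9, 17.1 and 16 before treatment, 3.15-fold higher (adjusted p = 0.0073). The other most abundant circRNAs, those of btsz and Wbp2 and 2 with no host named, were not called, with log2 fold changes from -0.08 to 0.82. Of the 13 genes whose circRNAs the study followed by RT-qPCR, 12 had tested circRNAs, 46 in all. Of these circRNAs, 4 were higher (8.70%, against 9.62% of all circRNAs tested). They included that of Dscam2, an adhesion receptor of neurons, with 32.9, 25.1 and 22.7 at 18 °C and 7.86, 3.42 and 5.98 before treatment (4.68-fold higher, a call lost without 18 °C replicate 1), and that of Jupiter, a microtubule-associated protein, with 30.2, 29.4 and 27.4 at 18 °C and 6.29, 10.3 and 12 before treatment (3.05-fold higher, but adjusted p = 0.067 in edgeR). The most abundant circRNAs of Ank2, Haspin, sfl, brp, CG32809, CG41099, CG44153, Eph and CaMKI were not called, with log2 fold changes from -0.58 (CG44153) to 1.89 (Eph). None of these 13 genes was called in linear RNA.

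The 2 circRNAs called lower were both rare. That of dpy, a giant matrix protein that anchors epidermis to cuticle, had 4.12, 5.22 and 2.39 normalized reads at 18 °C and 14.1, 7.98 and 29.9 before treatment (adjusted p = 0.049), and that of CG7991 had 1.37, 2.85 and 0 at 18 °C and 20.4, 7.98 and 16 before treatment (adjusted p = 0.038). Both calls were lost when any single 18 °C library was left out and in edgeR (adjusted p = 0.077 and 0.074). The circRNA of CG17684 at 2R:2053024-2053618 was the only one with a mean of at least 20, lower levels in all 18 °C libraries and an unadjusted p below 0.05, with 45.3, 25.1 and 45.3 at 18 °C and 72.3, 51.3 and 75.8 before treatment, and it missed the test (adjusted p = 0.14).

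Most linear hosts of these circRNAs were not called. Of the 170 circRNAs called higher, 162 had a named host, 137 hosts in all, and 160 had a host that was tested in linear RNA. Of these, 157 had a host that was not called, 1 a host called higher and 2 a host called lower, and the median host log2 fold change was 0.09. Hosts are counted here once per circRNA. Over all linear genes tested 9.14% were called, so most hosts would be uncalled at that share as well. When the circRNA was tested relative to its host, 126 of 1641 differences were higher (7.68%) and 1 was lower (0.0609%). Of the 170 circRNAs, 119 were among them. These 1641 circRNAs passed the same filter, which favours higher values at 18 °C, so the counts relative to the host are a description too. No circRNA was called higher relative to its host without 18 °C replicate 1 or without 18 °C replicate 3, 19 were without 18 °C replicate 2, and 304 were without pre-treatment replicate 1. By function, the circRNAs of 27 channel and excitability genes had 12 of 102 called higher, those of 23 synaptic release genes 11 of 93 and those of 53 adhesion and axon guidance genes 8 of 95, against 9.62% of all circRNAs tested. The filter limit holds for these counts as well.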

How the data were processed

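Heads of CS males were sequenced as ribosome-depleted total RNA with a directional kit, 3 libraries per group labelled as biological replicates. The authors aligned reads to dm6 with STAR, counted linear genes with featureCounts and called circRNAs with find_circ2. The deposited values are a signal, reads per gene or back-splice junction divided by 1 DESeq2 size factor per library over both kinds. Whole reads were recovered for 100% of values within 0.01. The main test was limma 3.58.1 (R 4.3.3) on log2(value + 1) over all 11 libraries in 4 groups, with Benjamini-Hochberg adjustment. Linear genes needed a mean of at least 10, and circRNAs a span of at least 50 nt and all libraries of a group above 3, which left 1767. Alternatives were edgeR 4.0.16 and DESeq2 1.42.0 on recovered reads, other pseudocounts, filters and scalings, array weights, depth as a covariate, a replicate block and each library left out. The fits were tested on simulated data. Members and gene lists were chosen with earlier results of these data known. Named linear genes were the 12 largest called rises and falls with a mean of at least 100 and groups apart, and up to 5 called members of each list, with other members given by value. Named circRNAs were the 10 largest called rises and falls with a mean of at least 20, filled by unadjusted p, the 5 most abundant and those of the RT-qPCR genes. The 17 circRNAs called by several tools were chosen after their values were seen. No sequences are shown. Limits given for values of 0 cover counting error only. Each ± value is the SE of the limma fit or the SD over libraries, as named beside it, and reflects the spread between libraries.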

Additional observations from a re-analysis of the deposited data

How the results depend on the processing

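Depth was higher in every library but 1 of the 18 °C group than in the deepest pre-treatment library, and limits what the low circRNAs can show. The number of linear genes called was 1204 higher and 1201 lower with array weights, and leaving out 1 library gave 360 to 715 higher and 358 to 703 lower. For circRNAs, against 170 higher and 2 lower, the counts were 21 and 0 with the stricter filter, 96 and 0 with the 2 groups fitted alone, 17 and 0 with edgeR, 34 and 0 with array weights, 0 and 0 with depth as a covariate, and 122 and 20 with scaling to the circRNA total. DESeq2 gave 89 higher and 2 lower. Without pre-treatment replicate 2, alternatives chosen after seeing the data, DESeq2 gave 13 higher and 5 lower and edgeR 6 higher and 0 lower. The lower count was 0 with a pseudocount of 0.5, 1 with a pseudocount of 5 and 1 with TMM scaling. Leaving out 1 library gave 47 to 352 higher and 0 to 9 lower circRNAs. For the circRNA to host difference, against 126 higher and 1 lower, the counts were 0 and 0 with the 2 groups alone, the lower count was 0 with a pseudocount of 0.5 and 2 with a pseudocount of 5, and leaving out 1 library gave 0 to 304 higher and 0 to 4 lower. Leaving out 1 library gave a ratio of circRNA totals of 1.02 to 1.52. The cause of these changes was not tested. Of the values for named linear genes under the alternatives, 3921 kept their side of the threshold and 605 lost it, and of those for named circRNAs 331 kept it and 118 lost it. No named result reversed.

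The labels name biological replicates and do not say whether their numbers pair the samples. Deviations from the group means correlated at -0.06, 0.47 and 0.43 over linear genes between same-numbered libraries 1, 2 and 3. They correlated at -0.44 for 18 °C replicate 2 with pre-treatment replicate 3, and at -0.51 for 18 °C replicate 3 with pre-treatment replicate 2. These values do not settle whether the numbers mark pairs, and the main fit used none. With the replicate block 552 linear genes were higher and 532 lower, 128 circRNAs were higher and 0 lower, and 90 circRNA to host differences were higher and 0 lower. Not every library correlated best with its own number.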

Other observations

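Classes of non-coding genes other than pseudogenes had shares of calls near or below those of all genes. Of 1164 ncRNA genes tested, 55 were higher and 26 lower in flies from 18 °C, of 118 snoRNA genes 5 were higher and none lower by limma, and of 97 pseudogenes 12 were higher and 5 lower. On chromosome 4, the small heterochromatic dot chromosome, 8 of 105 tested genes were higher and none lower by limma. Over all genes 4.69% were higher and 4.44% lower.

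Digestive enzyme genes, which a head sample should hold little of, had a summed level of 15465 to 16197 normalized reads at 18 °C and 11298 to 12011 before treatment over 29 genes, so the groups did not overlap, and 2 of 23 tested genes were higher and 1 lower. The back-splice junctions with a span under 50 nt, left out of all results, summed to 1368 to 1606 normalized reads at 18 °C and 923 to 2058 before treatment.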
